A study of Homo sapiens with 8 samples.

Results

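A set of 3194 open chromatin sites of NCI-H295R cells stayed in the peak list of the cells given a CBP inhibitor and was missing from the lists of the cells given an EZH2 inhibitor or forskolin. The members were chosen from measured peak calls: a peak of the vehicle list entered when its summit lay more than 1 kb from both ends of every protein-coding gene (distal), when no base of it was overlapped in the EZH2 inhibitor and forskolin lists, and when at least 1 bp was overlapped in the CBP inhibitor list. They were 3194 of 48491 distal vehicle peaks (6.59%), which in turn were 79.5% of the 61016 vehicle peaks. Which lists hold a member is therefore fixed by the rule and is given below as a description, without a test. "Lost" and "kept" describe the lists, since a peak also leaves a list by falling just under the caller's threshold.

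NCI-H295R is an established human adrenocortical carcinoma line, and all 4 groups are this 1 line. The groups, each with 2 libraries that the labels call biological replicates, were EPZ-6438 (EZH2i) at 62 µM for 96 h, PRI-724 (CBPi) at 26 µM for 96 h, forskolin (FSK) at 10 µM for 48 h after 48 h of vehicle, and DMSO vehicle for 96 h. The labels describe the doses of both inhibitors as IC-50 doses. The study asked how these agents alter open chromatin, which ATAC-seq maps through the sites where the transposase Tn5 inserts adapters. Each group has 1 deposited peak list (41086 peaks for EZH2i, 47161 for CBPi, 51095 for FSK and 61016 for vehicle), so a group is compared as 1 list, the values carry no replicate error, and read depth is unknown. Of the adrenocortical marker genes, 6 of 8 had a vehicle peak within 1 kb of a gene end (CYP21A2 and HSD3B2 had none), against 3 of 7 chromaffin, 2 of 7 fibroblast, 1 of 6 endothelial and 2 of 7 immune markers. In a bulk culture, fewer cells with an open site and less opening per cell cannot be told apart.

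Distal open chromatin holds enhancers, insulators and starts of transcripts that are not annotated as protein-coding. EZH2 is the methyltransferase of Polycomb repressive complex 2 and places the repressive mark on histone H3 lysine 27, while CBP acetylates histones, lysine 27 of H3 included, and serves as a coactivator for CREB and for β-catenin. PRI-724 is known as a blocker of the contact between CBP and β-catenin, and forskolin activates adenylyl cyclase and so raises cAMP, the second messenger of ACTH in the adrenal cortex.

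Most members lay away from any annotated start. A start window, from 250 bases before to 50 after a RefSeq transcript start (build GRCh38.p14, the same coordinates as hg38), held the summit of 51 of 3063 members (1.67%, 95% Wilson interval 1.27 to 2.18). The other 131 members were not analysed for this. The interval treats peaks as independent and covers counting error only, as do all intervals below. Of the 51, 26 windows belonged to transcript starts of protein-coding genes and 25 to those of long non-coding RNAs. The share was 7.26% among distal peaks kept with all 3 treatments, 0.743% among those lost with all 3, and 0.837% among those lost with CBPi only. The sequences of the 250 bases before the start are printed for the 3 start-window members of largest vehicle area and for 3 protein-coding genes chosen after their values were seen: AGT, which encodes angiotensinogen, LIPA, which encodes lysosomal acid lipase, and RAP1GAP2, a Rap1 GTPase-activating protein gene that also ranks among those with the most members. They read 5′ to 3′ on the strand of the gene, from RefSeq, and capitals mark matches, on either strand, to the motifs named beside each.
LINC01825 (chr2:195532714-195532963, plus strand; RUNX and TEAD matches): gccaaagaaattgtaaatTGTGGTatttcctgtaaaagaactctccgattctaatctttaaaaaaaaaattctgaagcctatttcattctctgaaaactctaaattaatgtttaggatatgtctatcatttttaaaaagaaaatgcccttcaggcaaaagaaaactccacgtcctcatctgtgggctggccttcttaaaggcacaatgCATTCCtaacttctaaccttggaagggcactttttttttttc
LINC02172 (chr4:137545481-137545730, plus strand; TEAD and E-box matches): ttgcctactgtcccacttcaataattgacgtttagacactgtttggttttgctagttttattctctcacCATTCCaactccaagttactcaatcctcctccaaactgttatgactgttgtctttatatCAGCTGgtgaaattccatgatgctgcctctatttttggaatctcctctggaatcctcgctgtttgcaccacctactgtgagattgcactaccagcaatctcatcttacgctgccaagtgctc
LOC105374837 (chr2:84888720-84888969, plus strand; TEAD and TCF matches): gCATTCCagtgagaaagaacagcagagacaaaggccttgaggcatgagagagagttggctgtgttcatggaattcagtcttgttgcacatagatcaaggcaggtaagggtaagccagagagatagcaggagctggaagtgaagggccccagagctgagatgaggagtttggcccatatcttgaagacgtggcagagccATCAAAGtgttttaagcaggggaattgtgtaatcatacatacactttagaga
AGT (chr1:230714123-230714372, minus strand; RUNX and MEF2 matches): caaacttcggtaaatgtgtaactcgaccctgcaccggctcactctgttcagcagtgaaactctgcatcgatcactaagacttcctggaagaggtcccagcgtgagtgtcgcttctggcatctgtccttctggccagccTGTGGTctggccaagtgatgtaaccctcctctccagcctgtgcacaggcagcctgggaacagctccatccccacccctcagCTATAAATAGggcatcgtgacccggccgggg
LIPA (chr10:89342690-89342939, minus strand; 3 NFY matches): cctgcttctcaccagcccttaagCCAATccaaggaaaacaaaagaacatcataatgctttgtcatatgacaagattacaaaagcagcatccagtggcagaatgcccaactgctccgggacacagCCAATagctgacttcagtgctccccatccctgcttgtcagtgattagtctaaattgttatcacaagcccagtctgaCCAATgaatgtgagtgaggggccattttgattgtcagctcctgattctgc
RAP1GAP2 (chr17:2975411-2975660, plus strand; E-box match): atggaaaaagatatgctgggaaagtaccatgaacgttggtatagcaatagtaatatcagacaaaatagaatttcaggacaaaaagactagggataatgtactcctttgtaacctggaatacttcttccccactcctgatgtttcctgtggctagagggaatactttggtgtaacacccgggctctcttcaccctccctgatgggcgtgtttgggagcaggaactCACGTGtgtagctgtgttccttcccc

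The start windows under members were less GC-rich than those under peaks kept with all 3 treatments, with a median of 52.3% GC (quartiles 45.7 and 60.3%) against 65.3% (57.0 and 72.3%), and 46.7% under peaks lost with all 3. Of 15 short motifs searched on both strands of the 300-base windows, the SP motif GGGCGG was in 13 of 51 member windows (25.5%), in 65.2% of windows under peaks kept with all 3, in 10.7% of those under peaks lost with all 3, and in 45.0% of all 34961 windows. The ETS motif CCGGAAG was in 8 of 51 (15.7%), against 11.8%, 4.00% and 10.3% of the same 3 sets of windows. The NFY motif CCAAT, of which LIPA shows 3 matches, was in 14 member windows (27.5%), against 34.6% of all windows. The cAMP response element TGACGTCA and the CTCF motif were in none of the 51, and in 1.85% and 1.46% of all windows. The capitals in AGT also mark a MEF2 motif. The other letters in capitals above are TGTGGT for RUNX, GGAATG for TEAD, CTTTGAT for TCF, and CACGTG or CAGCTG for the E-box. A match is a string of letters and not a site, and some of these strings are short enough to occur in many windows. Sequence of the other members was not analysed here.

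One member overlapped a microRNA hairpin, that of MIR125B1 (chromosome 11, hairpin 122099757 to 122099844, minus strand), 15893 bp from the nearest protein-coding gene end, that of BLID. Its 2 mature products are printed from RefSeq with the seed, bases 2 to 8, in capitals.
hsa-miR-125b-5p: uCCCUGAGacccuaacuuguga
hsa-miR-125b-1-3p: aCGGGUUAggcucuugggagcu
The peak lay at 122099350 to 122099833 with an area of 349 in the vehicle list, percentile 27.6 of that list, and the CBPi peak over it had an area of 546, at percentile 44.2 of the CBPi list. A hairpin was overlapped by 1 of 3063 members (0.0326%, 0.00576 to 0.185). Over all distal vehicle peaks it was 63 of 46556 (0.135%), a share inside that interval. The counts were 56 of 20248 for peaks kept with all 3 treatments (0.277%), 1 of 10101 for those lost with all 3 (0.0099%) and none of 1792 for those lost with CBPi only.

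The keep or lose pattern of the members was the fifth most frequent of 8. The background is that 45.3% of distal vehicle peaks were lost with EZH2i, 37.4% with CBPi and 36.0% with FSK. Of the 13767 lost with both EZH2i and FSK, 23.2% were kept with CBPi; these are the members, and nothing is read from that share. The opposite pattern, lost with CBPi and kept with the other two, held 1875 distal peaks, which were 8.20% of those kept with EZH2i and FSK. There were 1.70 members for each peak of the opposite pattern, and this order turned round when all 4 lists were shortened to their 41086 peaks of largest area, where 1138 members stood against 1553 peaks lost with CBPi only. The excess was also gone with CBPi required to cover 50% of a peak (2974 against 2981) and small with no EZH2i or FSK peak allowed within 1 kb (2777 against 2616), rules that treat the treated lists unequally. Among vehicle peaks at gene ends, 330 of 12525 (2.63%) had the members' pattern.

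**Figure D1:**
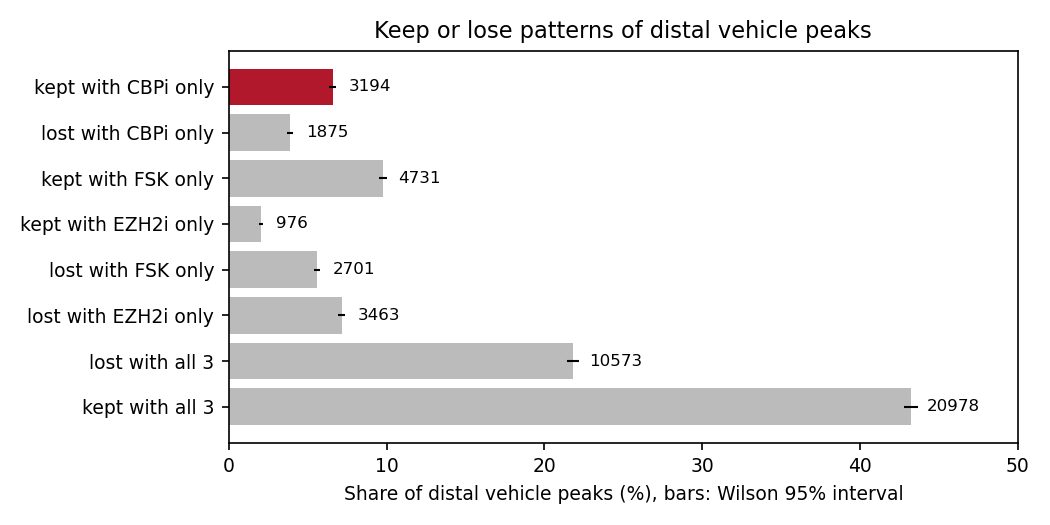
Share of the 48491 distal vehicle peaks in each keep or lose pattern (horizontal axis, percent; whiskers are Wilson 95% intervals, numbers are peaks). The 3194 peaks kept with CBPi only (red, top) make up 6.59%, against 43.3% kept with all 3 and 21.8% lost with all 3.

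The members were small peaks in both lists that hold them. The authors' signal value is the area of significance under a peak, and areas are used only within a list, because lists from libraries of unknown depth share no scale. Members had a median area of 335 in the vehicle list (quartiles 261 and 432, largest 1391), against 506 for the other distal peaks. Their median rank was percentile 25.7 of the vehicle list, against 66.1 for distal peaks kept with all 3 treatments, 38.0 for those lost with CBPi only and 15.9 for those lost with all 3. Distal peaks kept with EZH2i only and with FSK only ranked near the members, at median percentiles of 26.0 and 29.2. The median width of members was 378 bp and their median summit −log10 p was 3.84, against 477 bp and 4.35 for the other distal peaks. Split into deciles by area, distal peaks of the 5 lowest deciles were members in 9.92 to 11.96% of cases, and the share then fell to 5.88, 3.61, 1.67 and 0.351% in the next 4 deciles and to none of 4849 in the highest, which allows up to 0.0792%. The 3 members of largest vehicle area lay on chromosome 16 at 65284586 to 65285414, 161036 bp from the cadherin gene CDH11 (area 1391), inside the chromatin remodeller gene CHD9 on the same chromosome at 53085108 to 53086463 (area 1389), and on chromosome 12 at 91647796 to 91648861, 465664 bp from DCN, which encodes decorin (area 1366). The vehicle list holds a larger area in 23.4% of its peaks than at the first of these. The summit of that first member was 278 bp from an end of the long non-coding RNA gene LINC00922.

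In the CBPi list, 3183 peaks covered the members. Their median area was percentile 16.9 of that list (quartiles 8.11 and 28.6), 80.3% of members had a CBPi area under 400, against 32.0% of the whole CBPi list, and 144 members (4.51%) were above its median. The overlap was close to complete in most cases: a CBPi peak covered a median of 90.9% of a member, 98.8% of members had their vehicle summit inside a CBPi peak, and the summits of both peaks were a median of 27 bp apart. The peaks over the opposite pattern had median area percentiles of 18.05 within the EZH2i list and 31.6 within the FSK list. The nearest EZH2i peak was a median of 13369 bp from a member and the nearest FSK peak 10956 bp, with 10.6% and 11.5% of members within 1 kb, while peaks lost with all 3 lay 22451 and 16984 bp away. Nearer to the members' values, peaks lost with EZH2i only lay 15028 bp from an EZH2i peak (8.61% within 1 kb). Those lost with FSK only lay 12750 bp from an FSK peak (9.37% within 1 kb).

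A small number of members shared their CBPi peak with another vehicle peak. This was so for 3.48% of members, and there the nearest EZH2i and FSK peaks were a median of 196 and 275 bp away, against 14113 and 11662 bp for the remaining 3083. Of the 91 other vehicle peaks under these CBPi peaks, 70 were kept with EZH2i and FSK. The 6 members with the highest CBPi areas were all of this kind and had their summits inside the genes SETD5, SMAD3, LEF1, RASAL2, NFIL3 and MEIS2. The member inside LEF1, which encodes a transcription factor of the Wnt pathway, had a vehicle area of 236 (percentile 8.32) on chromosome 4 at 108165856 to 108166335, while the CBPi peak over it ran over to 108169952 at percentile 99.5. That member lay 131 bp from an EZH2i peak and 121 bp from an FSK peak. Among members alone under their CBPi peak, the highest CBPi area was at percentile 64.7, 14024 bp from OSBP, an oxysterol-binding protein gene (chromosome 11, 59559987 to 59561287, vehicle area 898).

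The values at the edges of the rule were as follows. The members nearest to a gene end were 1009 bp from RPAP3 (vehicle area 241) and 1011 bp from H2BC12 (area 526), and the nearest peaks left out by distance were 1000 bp from C16orf96 (area 238) and 997 bp from C6orf62 (area 390). The smallest CBPi overlaps of members were 33 bp at QSOX1, 41 bp near LRRC28 and 58 bp near PPM1A. The smallest gaps of a member to an EZH2i or FSK peak were 49 and 45 bases, and 17 members lay within 100 bp of such a peak.

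The members were placed in gene-rich parts of the genome. When the genome was divided into 5 Mb windows and these into quintiles by their number of protein-coding genes, the member share of distal peaks was 2.85, 4.201, 6.28, 8.07 and 10.3% in order of gene content, with intervals of 2.50 to 3.25% in the first and 9.77 to 10.9% in the last. The ratio of the last to the first was 3.62 (3.14 to 4.18). The opposite pattern ran the other way, at 8.29, 5.51, 3.14, 2.39 and 1.27%, and peaks kept with FSK only fell to 4.44% in the gene-rich quintile, against 16.8% in the gene-poor one. The gene-rich placement was shared with the other patterns kept with CBPi: the share was 7.53% in the gene-rich and 3.08% in the gene-poor quintile for peaks lost with FSK only, 7.93% and 5.79% for those lost with EZH2i only, and 52.2% and 36.1% for those kept with all 3. The share of distal peaks lost with both EZH2i and FSK was 27.3, 28.4, 31.6, 29.3 and 25.4% over the same quintiles, whereas the share of those that were kept with CBPi was 10.5, 14.8, 19.9, 27.5 and 40.7%. Loss with CBPi over all distal peaks was 21.99% in the gene-rich quintile and 52.2% in the gene-poor one, so the members' gradient and that of CBPi loss are readings of the same calls.

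**Figure D2:**
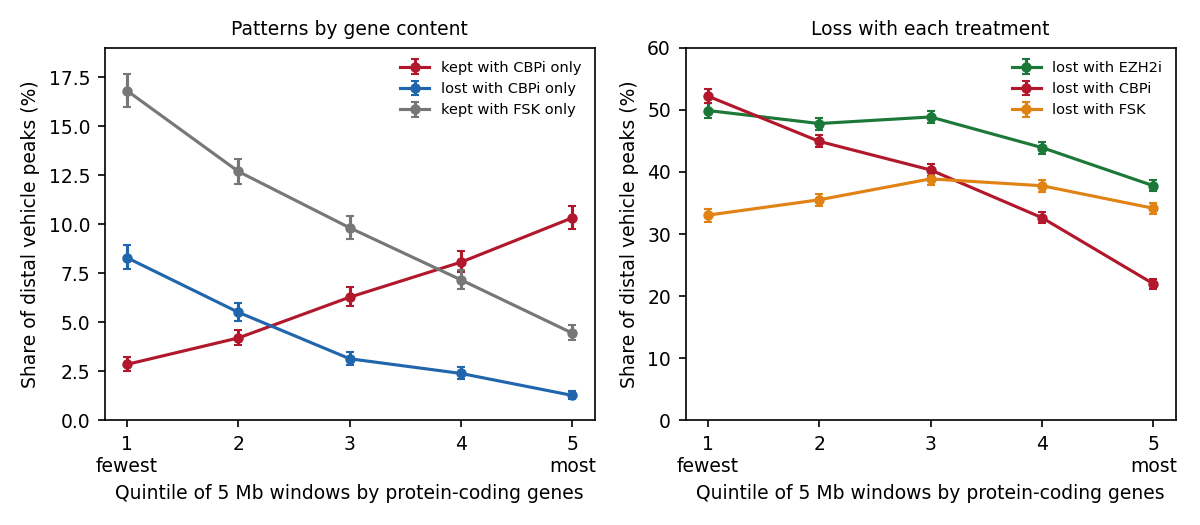
Left, share of distal vehicle peaks with each of 3 patterns (percent) by quintile of 5 Mb windows, ordered by number of protein-coding genes; right, share lost with each treatment. Whiskers are Wilson 95% intervals; the peaks kept with CBPi only climb over the quintiles to 10.3%, and those lost with CBPi only drop to 1.27%.

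In points, the difference between the quintiles was widest among small peaks. In the lowest decile of distal peaks by vehicle area, 214 of 1018 peaks in the gene-rich quintile were members (21.0%, 18.6 to 23.6), against 30 of 817 in the gene-poor quintile (3.67%, 2.58 to 5.19). In the fifth decile the shares were 14.4% and 5.17%, and in the seventh 3.37% (2.44 to 4.63) and 2.79% (1.81 to 4.27), whose intervals overlap. In the eighth decile 18 of 1099 and 4 of 778 were members (1.64% and 0.514%, intervals overlapping), and with all lists at an area of 400 or more the gene-rich to gene-poor ratio was 3.84 (3.25 to 4.55). With the other distal peaks weighted to the members' areas, 35.2% of members and 19.96% of the others lay in the gene-rich quintile, and 6.73% and 17.1% in the gene-poor quintile. Weighted in the same way, peaks lost with FSK only had 34.8% in the gene-rich and 6.86% in the gene-poor quintile, close to the members, and those kept with all 3 had 31.4% and 11.5%. GC content of the peaks was not analysed here, and its part in the gradient was not tested.

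**Figure D3:**
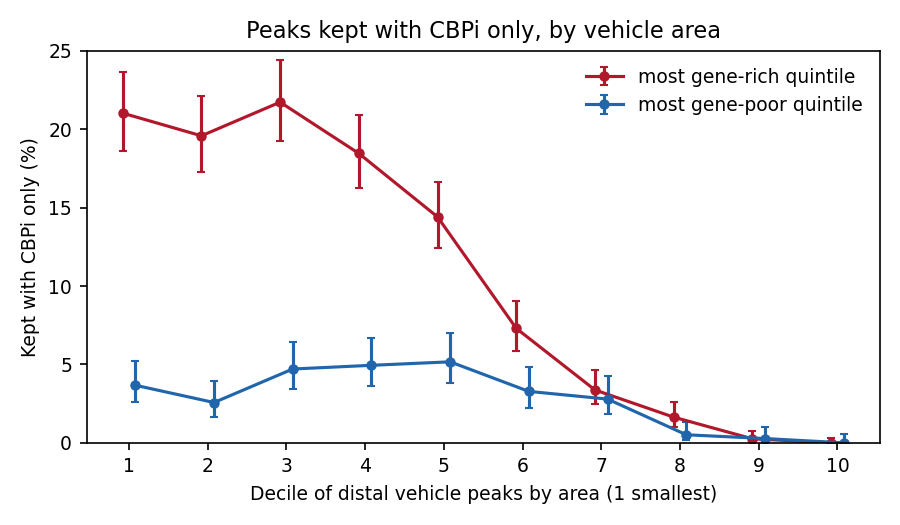
Share of distal vehicle peaks kept with CBPi only (percent, Wilson 95% whiskers) by decile of vehicle area, in the most gene-rich (red) and most gene-poor (blue) quintile of 5 Mb windows. The gene-rich quintile lies above the gene-poor one in the 6 lowest deciles, at 21.0% against 3.67% in the first, and the intervals overlap from the seventh on.

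Members also lay closer to genes. Their median distance to a protein-coding gene end was 24882 bp, against 40446 bp for the other distal peaks and 118817 bp for those lost with CBPi only. Much of this closeness was shared with the other patterns kept with CBPi. Their medians were 29384.5 bp (kept with all 3), 31182 bp (lost with EZH2i only) and 33926 bp (lost with FSK only). The member share was 8.63% of distal peaks between 1 and 5 kb from a gene end, 8.21% between 5 and 20 kb, 7.05% between 20 and 100 kb, 4.29% between 100 and 500 kb and 1.83% beyond 500 kb. The opposite pattern took 1.78, 2.14, 2.98, 6.47 and 10.6% of the same classes. Summits inside a protein-coding gene made up 54.9% of members (53.1 to 56.6), against 48.4% of the other distal peaks (47.9 to 48.9) and 34.8% of those lost with CBPi only. They made up 53.3% of peaks lost with EZH2i only (51.7 to 54.99) and 52.3% of those lost with FSK only (50.4 to 54.2), whose intervals overlap that of the members. By quintile in order of gene content, members were 3.45, 4.76, 6.999, 8.70 and 10.1% of distal peaks inside genes and 2.55, 3.72, 5.61, 7.35 and 10.6% of those between genes. The inside share was the higher in the first 4 and not in the most gene-rich. The intervals were apart only in the third quintile (6.31 to 7.76% inside genes, 5.02 to 6.28% between genes) and overlapped in the others.

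By chromosome, the highest member shares were on chromosome 17 (153 of 1230 distal peaks, 12.4%, 10.7 to 14.4), chromosome 22 (11.6%) and chromosome 20 (10.2%). The lowest were on chromosome 4 (4.38%), chromosome 7 (4.45%) and chromosome 18 (4.64%). Chromosome 7 had the highest share of the opposite pattern, 7.20%. Chromosome 19 was at 6.84%, near the whole set, but 43.1% of its peaks lost with EZH2i and FSK were kept with CBPi, against 23.2% in all. Of its distal peaks, 26.7% were lost with EZH2i and 24.0% with FSK. Chromosome 1 held the most members, 320.

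**Figure D4:**
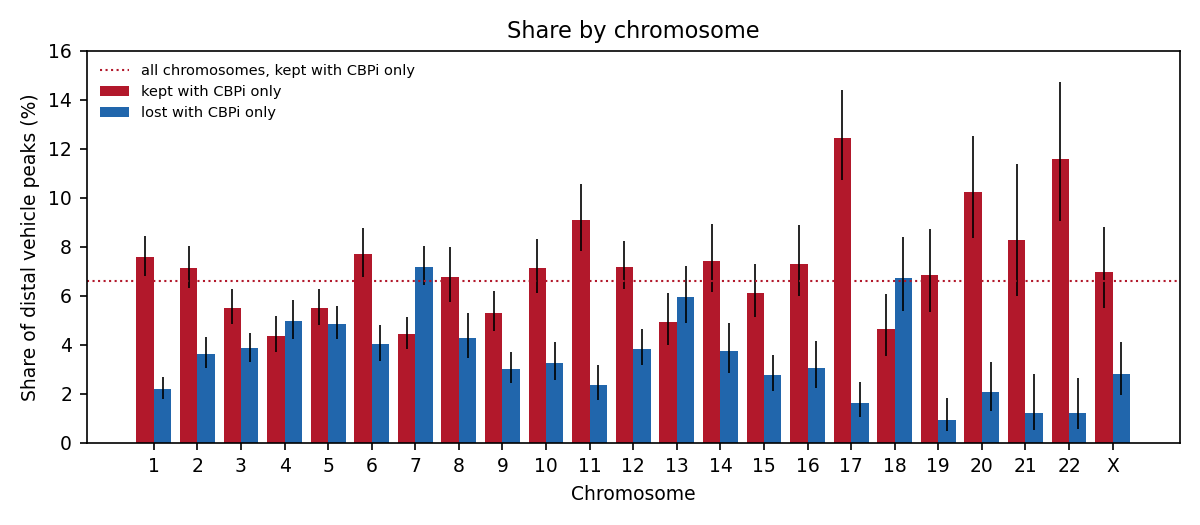
Share of distal vehicle peaks (percent, Wilson 95% whiskers) kept with CBPi only (red) and lost with CBPi only (blue) on each chromosome; the dotted line is the red share over all chromosomes, 6.59%. Chromosomes 17, 22 and 20 have the highest red bars, at 12.4, 11.6 and 10.2%, and chromosomes 4, 7, 13 and 18 have a blue bar above the red one.

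Members were more often next to each other than other peaks were next to a member. The next distal vehicle peak was a member for 361 of 3193 members (11.3%, 10.3 to 12.5), against 2828 of 45275 other distal peaks (6.25%, 6.03 to 6.47). Most members still stood alone: 2515 runs held 1 member, 283 held 2, 28 held 3, 6 held 4 and 1 held 5. The run of 5 lay on chromosome 5 between 58686529 and 58813557, with RAB3C, a secretory vesicle GTPase gene, nearest to its first member. In 1 Mb windows the highest count was 10 members of 56 distal peaks, on chromosome 15 between 71 and 72 Mb, where 2 were assigned to THSD4.

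When each peak was given to the closest protein-coding gene, if an end of it was within 100 kb, 2655 members (83.1%) fell to 2232 genes, and 7.71% of all assigned distal peaks were members. Only 1 gene had 5 members, 11 had 4, 57 had 3, 272 had 2 and 1891 had 1. TBX3, which encodes a T-box transcriptional repressor that acts in development, had 5 members among its 14 distal peaks, with areas from 274 to 318. None of the 14 was lost with CBPi, and 7 each were lost with EZH2i and FSK. All 5 members lay on chromosome 12 between 114658154 and 114726739, 1 of them inside the gene and 4 outside it. POU2F3, the gene of a POU transcription factor that specifies tuft cells, had 4 distal peaks, and all 4 were members. They lay on chromosome 11 at 120235082 to 120235365, 120258616 to 120259154, 120299903 to 120300207 and 120302960 to 120303339, with vehicle areas of 216, 430, 231 and 567.

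Other genes with 4 members covered several functions. KIF3C, a kinesin motor gene, had 4 of 6 distal peaks, and FGF12, a fibroblast growth factor homologous factor gene, had 4 of 7. RAP1GAP2 had 4 of 9. KCNN3, a calcium-activated potassium channel gene, had 4 of 10, and NRCAM, a neuronal adhesion gene, 4 of 11. FMN1, a formin gene, had 4 of 12, ARHGAP18, a GTPase-activating protein gene, 4 of 13, and MYO10, an unconventional myosin gene, 4 of 17. From the vehicle areas of their distal peaks alone, these genes would hold 0.370 (KIF3C) to 0.986 (MYO10) members each, but genes named for their count have high counts by that choice.

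Peaks at gene ends were lost at similar shares in genes with and without a member. Among genes with a member and a vehicle peak at a gene end, 78 of 1745 lost that peak with EZH2i (4.47%, 3.596 to 5.54), 40 with CBPi (2.29%, 1.69 to 3.11) and 84 with FSK (4.81%, 3.90 to 5.92). Among genes with a distal peak and no member the shares were 4.37, 2.87 and 4.59%, and the intervals overlap in each treatment. The gene-end peaks of these 2 sets of genes were not matched by area. Of the 63 genes with 3 or more members and a gene-end peak, none lost it with EZH2i or FSK (up to 5.75% by the interval) and 1 lost it with CBPi.

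Of the gene lists, steroidogenic genes had 13 members among 82 assigned distal peaks (15.9%, 9.51 to 25.3), against 7.71% over all genes and 4.73 members expected from area. Their members had a median vehicle area of 278, against 333 for all assigned members. SCARB1, the gene of the HDL receptor that supplies cholesterol, had 3 members of 22 distal peaks, all inside the gene, with vehicle areas of 251, 204 and 415. STAR, whose protein moves cholesterol into mitochondria, had 1 of 5, inside the gene and 1791 bp from an end, with a vehicle area of 216 at percentile 3.92 and a CBPi peak at percentile 60.3 that also covered another vehicle peak. CYP11A1, the side-chain cleavage enzyme gene, had 1 of 5 (chromosome 15, 74375242 to 74375539, vehicle area 374), FDX1, the gene of its electron donor, had 1 of 4 (area 323), and SULT2A1, the DHEA sulfotransferase gene, had 1 of 2 (area 239). CYP11B1 had its only distal peak and CYP11B2, the aldosterone synthase gene, 2 of 4. These paralogs are nearly identical, but the members lay outside both genes. They were 7248 bp from an end of CYP11B1 and 22281 and 37524 bp from an end of CYP11B2. How reads were placed at these peaks was not tested. MELK, which encodes a mitotic kinase and no steroidogenic enzyme, had 3 of 9. Without MELK, CYP11B1 and CYP11B2 the list had 7 of 68 (10.3%, 5.08 to 19.8), and that interval includes the share over all genes.

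Wnt, cAMP, and Polycomb and coactivator genes had shares whose intervals include the 7.71% over all genes. Wnt genes had 11 members among their distal peaks (10.9%, 6.19 to 18.5). They were 2 of 4 at RNF43 and 1 of 13 at ZNRF3, the genes of ubiquitin ligases that remove Wnt receptors, 2 of 9 at LGR5, an R-spondin receptor gene, and 1 of 6 at AXIN2, a feedback inhibitor gene. TCF7L1, NKD1, AFF3, TNFRSF19 and MYC had 1 each. An RNF43 member of vehicle area 223 and a ZNRF3 member of vehicle area 249 lay under CBPi peaks at percentiles 84.0 and 77.4, which also covered other vehicle peaks. CTNNB1, the β-catenin gene, is in the list of Polycomb and coactivator genes, which had 6 of 63 (9.52%, 4.44 to 19.3), and 1 of its 2 distal peaks was a member, 1388 bp from a gene end, with a vehicle area of 324 under a CBPi peak at percentile 94.0 that also covered another vehicle peak. The cAMP list had 7 of 107 (6.54%, 3.20 to 12.9), 1 each at PDE4B, PDE4D and PDE10A, phosphodiesterase genes, at the PKA subunit gene PRKAR2B, and at SGK1, NFIL3 and INHBA. None of the other genes of that list, among them NR4A1, FOS and CREM, had a member.

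Cell cycle genes had 7 members of 31 distal peaks (22.6%, 11.4 to 39.8), 2 of 3 at CDK1, 1 of 7 at CDK6, 1 of 5 at MKI67 and the only distal peak of CCNE2, E2F8 and MCM6. The largest of these by vehicle area were at MCM6, a replicative helicase gene (664), and MKI67, the Ki-67 gene (652). Developmental transcription factor genes known as Polycomb targets had 11 of 81 (13.6%, 7.76 to 22.7), of which TBX3 held 5 and PAX2 and EVX1 1 each. The lists of cell adhesion and axon guidance genes (6 of 129, 4.65%), cholesterol genes (3 of 51, 5.88%) and housekeeping genes (2 of 36, 5.56%) had shares whose intervals include 7.71%. So did the adrenocortical (5 of 38), chromaffin (1 of 7), fibroblast (2 of 16), endothelial (2 of 20) and immune markers (1 of 42). The cell adhesion and axon guidance list depended on how peaks were assigned. Over peaks inside its genes it had 6 members of 319 (1.88%, 0.865 to 4.04), below the 7.40% of all distal peaks inside genes. Of 27 alternative assignments over all lists (50 kb or gene bodies), 3 left the interval of the main one, this one included.

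**Figure D5:**
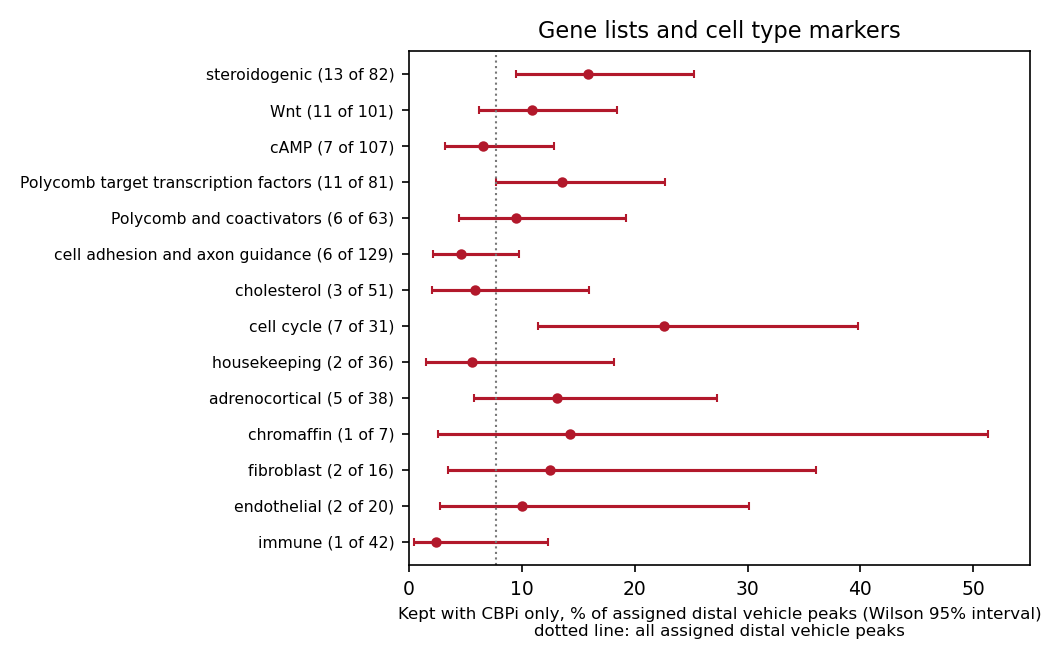
Share of the distal vehicle peaks assigned to each gene list that were kept with CBPi only (percent, Wilson 95% whiskers; counts in the labels); the dotted line is the share over all assigned distal peaks, 7.71%. The intervals of the steroidogenic (15.9%), cell cycle (22.6%) and Polycomb target (13.6%) lists lie above the line, and those of the other lists include it.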

How the data were processed

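ATAC-seq peaks of 8 libraries in 4 groups of 2 were used as 4 deposited lists. Per the submitters' processing notes, the authors used Bowtie2, Genrich and deepTools 2.0 on hg38; settings, threshold, Tn5 shift and the way 2 libraries became 1 list were not given in these sources. The deposited score, the deposited signal value (area of significance, smallest 200.0 per list) and the authors' −log10 summit p are the authors' own values; ranks used the area, and the score was not used. The members and gene lists were chosen with earlier results of these data known, including a dependence of CBPi loss on gene content, so no result here is independent support for it. Python 3.11.15, NumPy 2.4.6, pandas 2.3.3 and SciPy 1.17.1 computed overlaps of at least 1 bp, distances to 19974 protein-coding genes (RefSeq, GRCh38.p14) and Wilson 95% intervals. Overlap and distance code was tested on simulated data. Named genes were the 12 with the most members, ties by fewest distal peaks, and list genes with a member; results of some of these genes are not reported here. Start-window and hairpin counts leave out chromosome 8, not analysed there. Alternatives are in the closing section. Without replicate lists, no p-value was computed.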

Additional observations from a re-analysis of the deposited data

How the results depend on the processing

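With all lists cut to their 41086 largest peaks the member count was 1138, the ratio of members to peaks lost with CBPi only turned to 0.733 (1.70 on whole lists), the excess of members inside genes was 8.42 points (6.46), the gene-rich to gene-poor ratio 2.67 (3.62), the median vehicle area 509.3 (335), and the excess of members next next to a member 2.705 points (5.06). With areas of 400 or more in all lists, the ratio to the opposite pattern was 2.80 and the median area 570.1. That ratio was 1.49 with distal set at 5 kb, 0.998 with CBPi required to cover 50% of a peak, and 1.06 with no EZH2i or FSK peak within 1 kb; the last 2 rules treat the lists unequally. Requiring no EZH2i or FSK peak within 1 kb left an excess inside genes of 4.36 points, requiring CBPi to cover 50% of a member gave a median area of 329.6, and 10 Mb windows gave a gene-content ratio of 3.04. The share of members within 1 kb of a non-coding gene end differed from that of the other distal peaks by -0.84 points, but by 1.34 at 5 kb and by 1.42 with areas weighted. The cause of these shifts was not tested; shorter lists hold fewer and larger peaks by construction. At equal length, the member share over that of all chromosomes was 1.502 on chromosome 17 (1.89 on whole lists), 1.17 on chromosome 22 (1.76) and 1.06 on chromosome 20 (1.56), and the last 2 intervals include 1. No paired analysis was possible because each group has 1 list. Lists of single libraries were not used, so leaving out a library was not run, nor was the planned motif search under peaks, for which no genome was used. Depth is unknown, and whether members of small area would stay on the same side of the threshold in other libraries was not tested.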

Other observations

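Ends of tRNA genes lay within 1 kb of the summit of 15 members (0.470%, 95% Wilson interval 0.285 to 0.773). Over all distal vehicle peaks the count was 128 of 48491 (0.264%). It was 1 of 1875 for peaks lost with CBPi only (0.0533%), 6 of 10573 for those lost with all 3 treatments (0.0567%) and 85 of 20978 for those kept with all 3 (0.405%). Of the 15, 9 lay on chromosome 6 between TRQ-TTG3-2 (peak 26311534 to 26311967) and TRA-TGC1-1 (28788881 to 28789210), the region of a large tRNA gene cluster. Without chromosome 6 the share exceeded that of peaks lost with all 3 by 0.171 points, against 0.413 with it. The member of largest area among the 15 was the one near OSBP, 33 bp from TRK-TTT3-4. This comparison was made after the values were seen. Reads at repeated tRNA genes can be placed at more than 1 copy, and how they were placed is not given in the sources used here.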
